A study of Canis lupus familiaris with 4 samples.

Results

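The stretch of canine chromosome 4 from 19 to 24 Mb was described here in CLBL-1, a dog B-cell lymphoma line of the diffuse large type, and in its doxorubicin-resistant derivative CLBL-1 8.0. Its members are the captured regions of chromosome 4 whose start lies above 19000000 and at or below 24000000 in the region list of either line, on the CanFam3.1 assembly. They number 297 in the CLBL-1 list and 581 in the CLBL-1 8.0 list, together 878 of the 205668 regions listed in all. The stretch was chosen by measured values, the region numbers of its end windows, with 16 CLBL-1 and 93 CLBL-1 8.0 regions from 19 to 20 Mb and 8 and 70 from 23 to 24 Mb. Those numbers, and the other values that follow from them, are therefore a description.

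CLBL-1 is a lymph node line without chemoresistance, grown in RPMI medium with fetal bovine serum, and CLBL-1 8.0 is a derivative kept in the same medium with 8 µM doxorubicin, an anthracycline that blocks topoisomerase II. Genomic DNA of each line was captured with a methyl-binding domain protein (MethylCap-seq) and eluted at low and at high salt, which gave 4 libraries, 1 per line and salt. Each line has 1 region list, and the sources used here do not say whether its eluates were pooled before regions were called. With 1 list per line no difference below has a replicate check, and the 2 lines also differ in the presence of the drug in their medium, so resistance and exposure cannot be told apart.

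The capture enriches DNA that carries methylated CpG sites, so a listed region is a place where such fragments piled up. CpG islands are CpG-dense segments, often at gene starts, that are commonly unmethylated in normal cells, and shores are the flanks of islands. The bodies of transcribed genes and most CpG-poor DNA are usually methylated in vertebrates. Read depth is unknown, and a region missing from a list is not evidence that the DNA there is unmethylated.

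The ratio of CLBL-1 8.0 to CLBL-1 regions was highest at the ends of the stretch, and so was the difference in number per window. By 1 Mb windows, the CLBL-1 list held 16, 62, 104, 107 and 8 regions from 19 to 24 Mb, and the CLBL-1 8.0 list held 93, 115, 152, 151 and 70. The CLBL-1 numbers were highest in the middle and lowest at both ends, while the CLBL-1 8.0 numbers differed less between windows. Each of the 5 windows had more CLBL-1 8.0 regions, as did 92.1% of all windows, so that direction alone was near its background. In the outer windows, 19 to 20 and 23 to 24 Mb, the lists held 24 and 163 regions, a ratio of 6.79 (95% interval 4.41 to 10.9). In the inner windows, 20 to 23 Mb, they held 273 and 418, a ratio of 1.53 (1.31 to 1.79), whose interval includes the 1.61 of the rest of the chromosome (1.53 to 1.70). The difference summed to 139 regions in the outer windows and to 145 in the inner windows, which cover more DNA. By window from 19 to 24 Mb it was 77, 53, 48, 44 and 62 regions. Intervals here and below cover counting error only, and neighbouring regions are not independent.

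Taken whole, the stretch had 1.96 times as many CLBL-1 8.0 as CLBL-1 regions (1.70 to 2.26). In covered length the ratio was 1.63, from 164 kb in CLBL-1 to 267 kb in CLBL-1 8.0, against 1.32 in the rest of the chromosome and 1.26 over all chromosomes. The stretch was dense in both lists, with 59.4 CLBL-1 and 116 CLBL-1 8.0 regions per Mb against 29.8 and 48.1 elsewhere on the chromosome. The median length was 481 bp in CLBL-1 and 377 bp in CLBL-1 8.0.

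The end windows stood high among all 1 Mb windows, as the way they were chosen requires. With 1 added to each number, the log2 ratio of CLBL-1 8.0 to CLBL-1 regions was 2.47 from 19 to 20 Mb, rank 27 of 2343 windows, and 2.98 from 23 to 24 Mb, rank 10. Windows with a log2 ratio of 2 or more made up 3.76% of all windows. The 3 inner windows had log2 ratios of 0.88, 0.54 and 0.49, against a median of 0.68 over the genome and 0.83 on chromosome 4. Just outside the stretch, the window from 18 to 19 Mb held 9 and 19 regions and the window from 24 to 25 Mb held 28 and 80, log2 ratios of 1.00 and 1.48.

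The end windows differed from each other in what made them stand out. From 19 to 20 Mb, the CLBL-1 number of 16 equalled the median window of chromosome 4 outside the stretch, and the CLBL-1 8.0 number of 93 stood above the median of 36. Among 247 other windows of the genome with a CLBL-1 number within 2 of 16, the median CLBL-1 8.0 number was 28, and 1 window reached 93. From 23 to 24 Mb, the CLBL-1 number of 8 was below the median of 16, and 70 was above the median of 36. Among 400 windows with a CLBL-1 number within 2 of 8, the median CLBL-1 8.0 number was 15, and 2 windows reached 70.

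**Figure D1:**
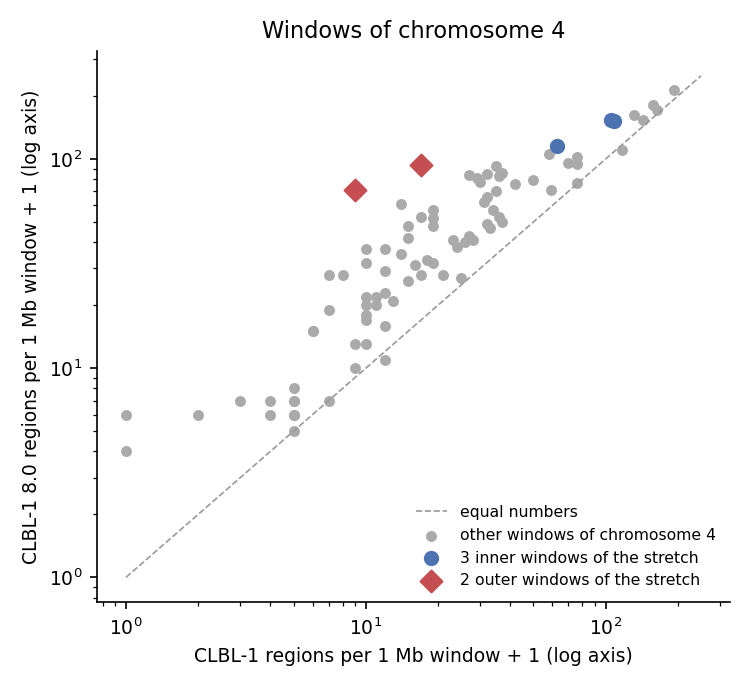
Each point is a 1 Mb window of chromosome 4, with its CLBL-1 number plus 1 (x axis) and its CLBL-1 8.0 number plus 1 (y axis) on log axes and a dashed line where both are equal. The 2 outer windows (red), with 16 and 93 and with 8 and 70 regions, lie above every other window of like CLBL-1 number, and the 3 inner windows (blue) lie among the others.

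The plot of windows shows this contrast between the ends and the middle, and the plot of 250 kb bins shows how it ran along the stretch. From 19.5 to 19.75 Mb the lists held 2 and 34 regions. From 20.75 to 21 Mb they held 29 and 36. From 23 to 23.25 and from 23.25 to 23.5 Mb the CLBL-1 list held none, and the CLBL-1 8.0 list held 14 and 15. The depth is unknown, so no limit can be given for these bins.

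**Figure D2:**
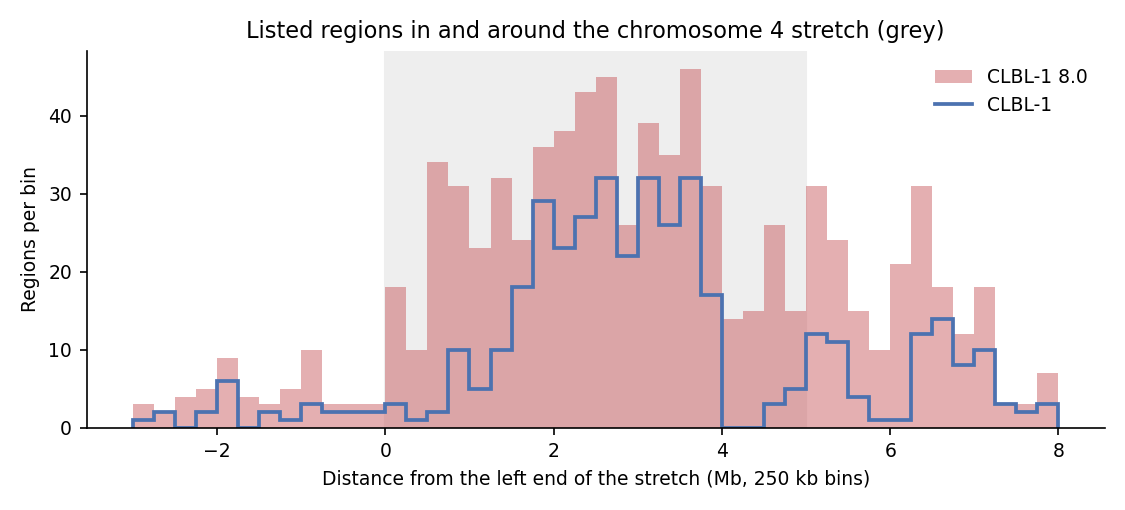
Regions per 250 kb bin (y axis) by distance from the left end of the stretch in Mb (x axis), with CLBL-1 as a line, CLBL-1 8.0 as filled bars and the stretch shaded grey. The CLBL-1 line comes close to the bars in the middle, as with 29 and 36 regions in the bin at 1.75 Mb, and is at 0 in the 2 bins that follow the 4 Mb mark.

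The left limit lay close to a change in the region numbers and the right limit did not. The last 250 kb bin before 19 Mb held 2 CLBL-1 and 3 CLBL-1 8.0 regions, and the first bin after it held 3 and 18. A likelihood scan looked for the interval with the largest excess of CLBL-1 8.0 regions on each side. It used the region numbers that chose the end windows and always returns an interval, so the ratios it gave are a description. Searched from 16 Mb to the middle of the stretch, it returned 18870667 to 20431889, with 25 CLBL-1 and 140 CLBL-1 8.0 regions, a ratio of 5.60. This interval begins within CTNNA3, a catenin gene that extends across the 19 Mb limit, and ends within HK1. Searched from the middle of the stretch to 27 Mb, it returned 22981137 to 25470157, with 46 and 199 regions, a ratio of 4.33. The right interval begins just upstream of DNAJB12 and runs past the 24 Mb limit. Between both intervals the lists held 263 and 371 regions, a ratio of 1.41. The same scan over all of chromosome 4, for a share that differs in either direction, returned no part of the stretch but 27.1 to 35.3 Mb, where the lists held 804 and 909 regions, a ratio of 1.13.

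The regions next to the limits lay in or beside 4 genes. At the left limit, the last CLBL-1 region outside was intronic in CTNNA3 (18870640 to 18871266), with a fold enrichment of 18.2. The first CLBL-1 region inside lay upstream of DNAJC12, a heat shock protein family member (19150881 to 19151165, fold 4.07), after a gap of 279615 bp. In CLBL-1 8.0 the regions on either side of the limit were both intronic in CTNNA3 (18918994 to 18919274, fold 5.38, and 19033827 to 19034173, fold 6.96). The fold enrichment is the authors' value for each region, and it is read within a list. The exceptions are the choice of promoter genes to name and the alternative with a fold limit from the pooled lists.

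At the right limit, the last CLBL-1 region inside was intronic in ANXA7, an annexin gene (23956688 to 23957123, fold 11.5). The next lay outside, intronic in PPP3CB, a catalytic subunit of calcineurin (24020486 to 24020791, fold 6.44). In CLBL-1 8.0, PPP3CB held the regions on both sides, a coding one inside (23977339 to 23977597, fold 4.75) and an intronic one outside (24020488 to 24020869, fold 10.8). The windows beyond the limits also had more CLBL-1 8.0 regions, with 23 and 54 from 16 to 19 Mb, a ratio of 2.35 (1.42 to 4.01). From 24 to 26 Mb the numbers were 63 and 162, a ratio of 2.57 (1.91 to 3.50).

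The largest gap between neighbouring CLBL-1 regions from 18 to 25 Mb measured 533 kb, from 22981663, just upstream of DNAJB12, to 23515054 in OIT3. It spans MCU. In CLBL-1 8.0 the largest gap that lay wholly inside the stretch measured 74.3 kb, from 23350937 to 23425213 within MCU. Other long CLBL-1 gaps lay between SIRT1 and MYPN (226 kb) and between MYPN and SLC25A16 (256 kb), both in the left end window.

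Regions were counted as shared where they had at least 1 bp in common. In CLBL-1, 272 of 297 members (91.6%, 87.9 to 94.2) overlapped a CLBL-1 8.0 region, which is called met here. The other 25 (8.42%) compare with 7.53% in the rest of the chromosome and 8.99% over all chromosomes, so this share was near its background. In CLBL-1 8.0, 309 of 581 members (53.2%, 49.1 to 57.2) met no CLBL-1 region, against 42.0% in the rest of the chromosome and 38.4% over all chromosomes.

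In the outer windows all 24 CLBL-1 regions were met, and 139 of 163 CLBL-1 8.0 regions (85.3%, 79.0 to 89.9) met none, a share that follows from the numbers that chose these windows. In the inner windows 170 of 418 CLBL-1 8.0 regions (40.7%, 36.1 to 45.4) met none. The inner share differed from that of the rest of the chromosome by -1.35 points (-6.20 to 3.66), an interval that includes 0. All 25 CLBL-1 regions that met no CLBL-1 8.0 region lay in the inner windows, and their median fold was 3.74, against 6.60 for the regions that were met. COL13A1 held 5 of them and CDH23 held 4.

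By CpG class, islands made up a lower share of the listed regions in the stretch than elsewhere on the chromosome, in both lists. These shares fall where open regions are many, and the number of islands in the DNA itself was not read. Regions outside islands and shores, called open here, were 222 of 297 in CLBL-1 (74.7%) and 485 of 581 in CLBL-1 8.0 (83.5%). In the rest of the chromosome they were 53.1% and 69.0%, so that the stretch was higher by 21.7 points (16.1 to 26.7) and 14.5 points (11.0 to 17.6). Shore regions numbered 62 and 83, and island regions 13 and 13. The island share of CLBL-1 members was 4.38%, with 9.78% elsewhere on the chromosome, and that of CLBL-1 8.0 members was 2.24%, with 7.49% elsewhere. No island region was listed in the outer windows in either line.

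Sharing differed by class in the same order as elsewhere. All 13 island regions of each list met the other list. Among CLBL-1 8.0 members, 22 of 83 shore regions (26.5%, 18.2 to 36.9) and 287 of 485 open regions (59.2%, 54.7 to 63.5) met none. In the rest of the chromosome the shares that met none were 3.67% of islands, 12.4% of shores (10.5 to 14.7) and 56.3% of open regions (54.4 to 58.1). The regions of CLBL-1 8.0 that met none were thus 287 open, 22 shore and 0 island. Among open regions alone, 86.3% met none in the outer windows, 46.7% in the inner windows and 56.3% in the rest of the chromosome. The outer share follows from the numbers that chose the outer windows. The inner share differed from that of the rest of the chromosome by -9.59 points (-15.2 to -3.90).

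**Figure D3:**
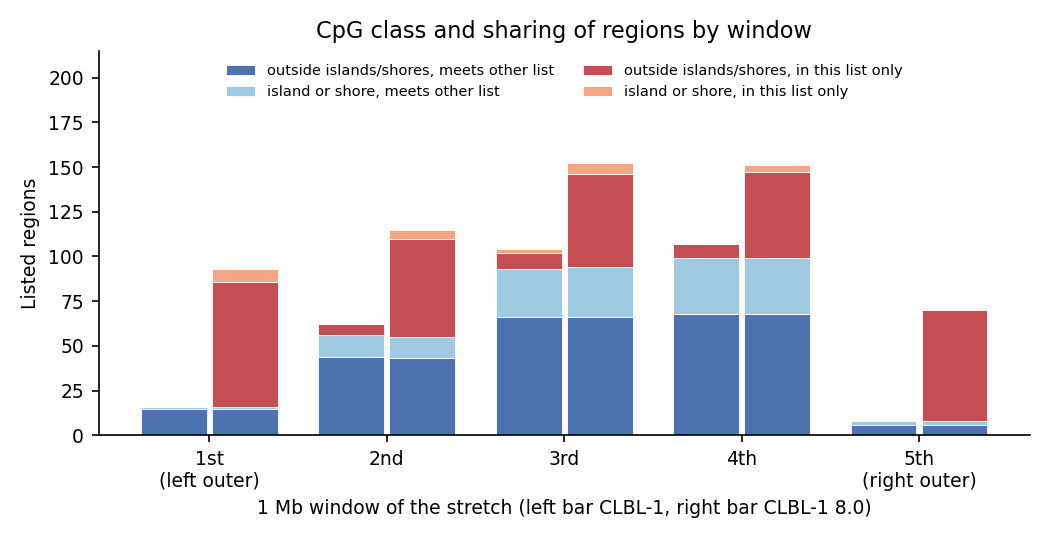
Number of listed regions (y axis) in each 1 Mb window of the stretch (x axis), with CLBL-1 as the left bar and CLBL-1 8.0 as the right bar, divided by CpG class and by whether the region met the other list. The dark red part, open regions of CLBL-1 8.0 that met none, makes up 70 of 93 regions in the 1st window and 62 of 70 in the 5th.

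The plot of classes shows that most CLBL-1 8.0 regions of the outer windows were open and met none, the latter as the choice of these windows requires. Open regions were 93.9% of the CLBL-1 8.0 regions there, 79.4% in the inner windows and 69.0% in the rest of the chromosome. In the outer windows 90.8% of the CLBL-1 8.0 regions were assigned to a gene, against 78.0% in the inner windows and 69.3% in the rest of the chromosome. The CLBL-1 regions had like shares, 91.7%, 78.0% and 68.5%. The 82 other windows of the genome with a log2 ratio of 2 or more held 2480 CLBL-1 8.0 regions. Of these, 2231 were open and 2031 (81.9%) met none, a share that follows from the ratio of these windows. In them 69.0% were assigned to a gene.

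Introns held the largest share of members. They held 156 members in CLBL-1 (52.5%) and 345 in CLBL-1 8.0 (59.4%), against 42.7% and 45.5% in the rest of the chromosome. The differences were 9.81 points (3.81 to 15.7) and 13.9 points (9.54 to 18.1). Of the 139 CLBL-1 8.0 regions of the outer windows that met none, 106 (76.3%) were intronic and 0 lay on a transcription start. Of the 309 in the whole stretch that met none, 202 (65.4%) were intronic and 0 lay on a start. Introns also held 16 of the 24 CLBL-1 regions of the outer windows (66.7%, 46.7 to 82.0). Regions in 3' untranslated parts were 25 in each list, 8.42% of the CLBL-1 members against 3.54% elsewhere on the chromosome, a difference of 4.87 points (2.11 to 8.65). Of these, 24 and 23 lay in the inner windows. Annotated enhancers met 7 CLBL-1 and 27 CLBL-1 8.0 regions, 2.36% and 4.65% of the members against 5.76% and 5.49% in the rest of the chromosome. Of the 27, 20 met no CLBL-1 region, as did 86 of 220 in the rest of the chromosome.

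Most members with a gene lay far from its start. In CLBL-1, 74.0% (68.1 to 79.2) began more than 10000 bp from the start of their gene, against 65.0% (62.7 to 67.3) in the rest of the chromosome. In CLBL-1 8.0 the shares were 73.4% (69.3 to 77.2) and 68.6% (66.9 to 70.3). The median distance was 31667 bp in CLBL-1 and 27700.5 bp in CLBL-1 8.0. Regions on a transcription start numbered 14 in each list, and each of the 14 in CLBL-1 8.0 met a CLBL-1 region.

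The fold enrichments of the members were near those of the rest of the chromosome. The CLBL-1 median was 6.40 (5.86 to 6.78), with 6.13 elsewhere on the chromosome, and the CLBL-1 8.0 median was 5.04 (4.85 to 5.20), with 5.29 elsewhere. The CLBL-1 8.0 regions that met none had a median fold of 4.78 and a median length of 316 bp, against 5.46 and 514.5 bp for those that met one. Island and shore regions had higher folds than open ones in the stretch, with medians of 8.30 and 5.77 in the CLBL-1 list, and of 5.77 and 4.92 in the other. In the rest of the chromosome the order was the reverse, with 5.18 and 6.78 for CLBL-1 and 4.48 and 5.38 for CLBL-1 8.0.

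The highest CLBL-1 folds belonged to a shore region upstream of CHST3, a chondroitin sulfotransferase gene (22663535 to 22664097, fold 20.8), and to an intronic region of CDH23 (22336572 to 22337260, fold 20.2). In CLBL-1 8.0 an intergenic shore region (22159210 to 22159782) had the highest fold, 16.2, followed by the intronic region of ANXA7 (23956692 to 23957122, fold 13.8). High folds among CLBL-1 8.0 regions that met none belonged to a region in the 3' untranslated part of DDX50, an RNA helicase gene (20102054 to 20102507, fold 9.71), and to one in P4HA1 (23638573 to 23638910, fold 9.18).

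Shared regions were set on 1 scale by their percentile of fold within each list, over 71549 regions that met exactly 1 region of the other list. In the outer windows the 24 such pairs had median percentiles of 51.4 in CLBL-1 and 73.1 in CLBL-1 8.0, and 20 of 24 (83.3%) were higher in CLBL-1 8.0. In the inner windows 93 of 236 pairs (39.4%) were higher in CLBL-1 8.0, with a median difference of -4.19 percentiles. Over all chromosomes 48.0% of pairs were higher in CLBL-1 8.0, and in the rest of chromosome 4 50.8% were. The plot of pairs shows that most shared regions at the ends of the stretch ranked higher in CLBL-1 8.0, and that most of those in the middle ranked lower. In the 82 other windows with a log2 ratio of 2 or more, 66.9% of 435 pairs were higher. In the 4 windows of chromosome 14 from 13 to 17 Mb, where the numbers differed more, 11 of 41 pairs (26.8%) were.

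**Figure D4:**
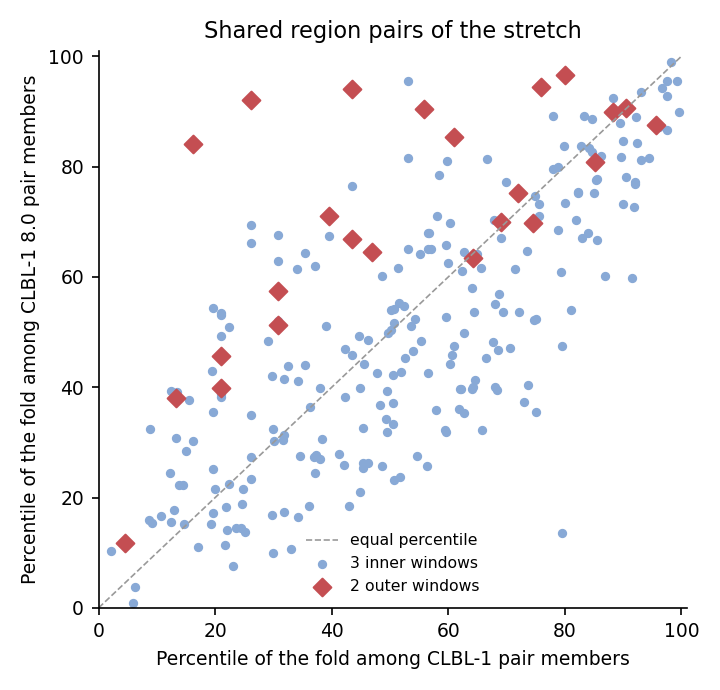
Percentile of fold in CLBL-1 (x axis) and in CLBL-1 8.0 (y axis) for pairs of shared regions in the outer and the inner windows, with a dashed line where both are equal. In the outer windows (red) 20 of 24 points lie above the line, and in the inner windows 93 of 236 do.

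Among genes of the outer windows, MCU had 0 and 14 regions and DNA2 and RUFY2 had 0 and 10 each. In the inner windows CDH23 had 43 and 54, a difference of 11 in a gene with many regions. Of its 54 CLBL-1 8.0 regions 16 met no CLBL-1 region, against 42.0% of regions in the rest of the chromosome. A region was assigned to 81 genes, of which 66 had more regions in CLBL-1 8.0, 11 had equal numbers and 4 had fewer. Over all genes with a region, 60.1% had more in CLBL-1 8.0 and 9.41% had fewer. No CLBL-1 region of the stretch was assigned to 26 of the 81 genes, and those 26 genes held 105 CLBL-1 8.0 regions. Over all genes the share without a CLBL-1 region was 20.3%, but there genes were not cut at a limit. CTNNA3 and PPP3CB are among the 26, though both had a CLBL-1 region just beyond the limits. All 27 genes of the outer windows had more regions in CLBL-1 8.0, 15 of them with no CLBL-1 region of the stretch. Their numbers summed to 22 and 148, which follows from how these windows were chosen. Of the 54 genes of the inner windows, 39 had more regions in CLBL-1 8.0, 11 had equal numbers and 4 had fewer. No CLBL-1 region was assigned to 11 of these 54, near the share over all genes, and their numbers summed to 213 and 326 over the 54. A gene's number also depends on its length, so numbers are compared only within a gene. In what follows the genes are ordered by role, in groups drawn up after the values were seen, and nothing is counted over a group.

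Several genes act in mitochondria. MCU, the pore of the channel that carries calcium into mitochondria, had 0 and 14 regions between 23306739 and 23510170. Of the 14, 12 were intronic, all were open, and the folds ranged from 3.80 to 8.55. The gene lies in the CLBL-1 gap described above. DNA2, a helicase and nuclease of nuclear and mitochondrial DNA, had 0 and 10 regions, SLC25A16, a mitochondrial carrier, had 2 and 8, and SUPV3L1, a mitochondrial RNA helicase, had 1 and 7. AIFM2, whose product limits lipid peroxidation, is named for its link to mitochondria and had 8 and 7.

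Among genes of membrane traffic and ubiquitin ligases, RUFY2, an endosomal protein gene, had 0 and 10 regions, with folds from 3.72 to 6.96. VPS26A, a subunit of the retromer that returns cargo from endosomes, had 0 and 5, as did SAR1A, the GTPase that starts COPII vesicles. A SAR1A region (21115917 to 21116503) met a CLBL-1 region that was assigned to its neighbour TYSND1, so 4 of its 5 regions met none. HERC4, a ubiquitin ligase gene, had 0 and 8 regions, and ANAPC16, a subunit of the anaphase-promoting complex, had 0 and 2.

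Among chromatin and RNA genes, TET1 encodes an enzyme that oxidises methylcytosine, the first step of active demethylation. It had 4 and 13 regions, of which 10 of the 13 met none and 10 were intronic, and no region assigned to it was flagged as promoter in either line. A shore region just past its start at 19759661 was listed in both lines and assigned to the neighbour LOC106558703, in CLBL-1 at 19760469 to 19761575 with a fold of 10.2 and in CLBL-1 8.0 at 19760482 to 19761579 with a fold of 7.36. CCAR1, a transcriptional coactivator of apoptosis and cell cycle genes, had 4 and 11. SIRT1, an NAD-dependent deacetylase, had 1 and 3, DDX21, a nucleolar RNA helicase, had 2 and 2, and LOC489024, annotated as the core histone macro-H2A.2, had 3 and 3.

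Among metabolic genes, HK1, hexokinase, which starts glycolysis, had 10 and 16 regions, of which 7 of the 16 met none. SGPL1, the lyase that degrades sphingosine-1-phosphate, had 3 and 9. PPA1, a pyrophosphatase, had 0 and 6, all of which met none, with folds from 5.06 to 7.60. PSAP, the precursor of the saposins that activate lysosomal lipid hydrolases, had 3 and 6.

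Among matrix and cell surface genes, CDH23, a cadherin of the tip links of inner ear hair cells, had 43 and 54 regions, the most of any gene in the stretch. Of the 54, 38 overlapped the CLBL-1 list. COL13A1, a transmembrane collagen, had 20 and 21, ADAMTS14, a procollagen protease, had 17 and 19, and UNC5B, a netrin receptor, had 15 and 16. CHST3 had 8 and 10 and SPOCK2, a proteoglycan, had 6 and 7. P4HA1, a subunit of the enzyme that hydroxylates collagen proline, lies in the right end window and had 0 and 6.

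Among genes of development and of neuropeptide receptors, NODAL, a ligand of the TGF-beta family, had 4 and 4, and NEUROG3, a factor of endocrine pancreas formation, had 2 and 2. NPFFR1, a neuropeptide receptor, had 5 and 7. Of the genes of cytotoxic granules, PRF1, perforin, had 2 and 4, and SRGN, serglycin, had 0 and 1.

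Other genes with many regions were LRRC20, with 7 and 15, PALD1, with 13 and 20, CFAP70, a cilia protein gene, with 3 and 9, and STOX1, with 1 and 8. The RNA gene LOC106558673 had 2 and 9. The genes with fewer CLBL-1 8.0 regions were AIFM2, given above, DNAJB12, a chaperone of the endoplasmic reticulum, with 8 and 6, and 2 uncharacterised loci with 1 and 0. These differences of 1 or 2 regions were the only ones in that direction among the 81 genes.

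**Figure D5:**
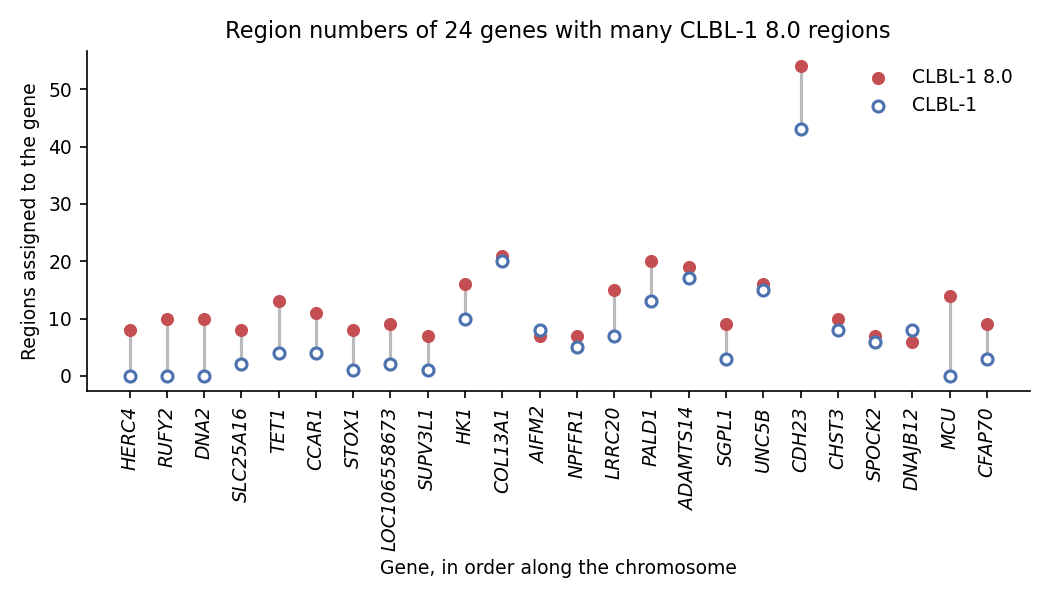
Number of regions (y axis) assigned to each of 24 genes with many CLBL-1 8.0 regions (x axis, in order along the chromosome), with open circles for CLBL-1 and filled circles for CLBL-1 8.0. CDH23 stands highest with 43 and 54, and MCU, DNA2, RUFY2 and HERC4 have their CLBL-1 circle at 0 and their CLBL-1 8.0 circle at 14, 10, 10 and 8.

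The plot of genes shows genes with no CLBL-1 region beside genes such as COL13A1 and UNC5B whose numbers were close in both lines. By promoter, 38 genes had a region flagged as lying in it. The CLBL-1 list named 21 of them and the CLBL-1 8.0 list 37. The lists had 20 in common, 17 were named by CLBL-1 8.0 alone and 1 by CLBL-1 alone. Over all genes with a promoter region, 24.5% were listed in CLBL-1 8.0 only. For 14 of the 17 genes the promoter region met no CLBL-1 region, which largely follows from their having no CLBL-1 promoter region. The share over all genes was not computed.

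The highest promoter folds belonged to genes listed in both lines. LOC489024 had 17.9 in CLBL-1 and 12.5 in CLBL-1 8.0. CFAP70 had 17.2 and 10.2, DNAJB12 15.7 and 9.50, SPOCK2 14.7 and 7.79, and STOX1 14.5 and 10.4. LOC111095707 had 14.1 and 11.8, and LOC102156415 had 11.4 and 5.38. LOC111095479 had a fold of 10.4 in CLBL-1 only, but the region met a CLBL-1 8.0 region at the same place that was assigned to its neighbour LOC111095480. The genes to be named were taken by the higher fold of either list, which also named LOC106558703, NPFFR1, TSPAN15, LOC106558673, COL13A1, AIFM2 and LOC111095477. Their CLBL-1 folds ranged from 5.77 to 10.2, and genes not named by this order, such as NODAL with 6.58, lay within that range. The SPOCK2, NODAL and AIFM2 promoter regions lay in CpG islands.

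Promoter regions listed in CLBL-1 8.0 only did not reach the highest CLBL-1 8.0 folds of the shared genes, which were named by fold. The ranges overlapped, as shared genes such as COL13A1 with 6.52 and NODAL with 6.53 show. Those named here were chosen after their values were seen. HK1 had 7.83, VPS26A 7.60, RUFY2 6.92, CDH23 5.72, MCU 5.70, HERC4 5.06, LRRC20 4.66 and SUPV3L1 4.50. The VPS26A, RUFY2, HERC4, LRRC20 and SUPV3L1 regions lay on island shores, and those of HK1, CDH23 and MCU were open. The MCU region lay at 23306739 to 23307011, upstream of the start at 23309376. None of these 8 promoter regions lay on a transcription start itself.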

How the data were processed

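MethylCap-seq of CLBL-1 and CLBL-1 8.0 gave 1 region list per line, deposited by the authors with coordinates, nearest gene, location class, CpG and promoter flags and a fold enrichment (a linear ratio), per the file headers. BWA, MACS2 and CanFam3.1 are named, per the submitters' processing notes, and the sources used here give no version or setting. The background of the fold, the depth, and whether positions count from 0 or 1 are not stated, and lengths here count both ends. Members were chosen with earlier results of these data known, as were the gene lists.

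From these lists, regions were counted by start, shared regions were those with at least 1 bp in common, and windows were 1 Mb with 1 added to each number for log2 ratios. Shares carry Wilson and differences Newcombe 95% intervals, ratios of numbers exact Poisson intervals, and medians order-statistic intervals. No p-value is given, since each line has 1 list. The interval scan maximised a binomial likelihood. It was tested on simulated data in 250 kb bins of the whole chromosome, for a share that differs in either direction. The searches for an excess on each side of the stretch were not simulated. Named genes are those with at least 3 regions in either list, up to 25 by CLBL-1 8.0 number, those with a promoter region, up to 15 by the higher fold of either list, and those next to each limit. Genes outside this rule were named after their values were seen, and 1 gene within it is not reported here. Of the 81 genes, 75 matched the dog RefSeq annotation on UU_Cfam_GSD_1.0, used for names only. No genome was used, so no sequence is shown. Alternatives were a stricter fold, lists of equal length, other limits of the stretch, other overlaps, open regions only and a minimum length. Python 3.11.15, numpy 2.4.6, pandas 2.3.3, scipy 1.17.1, statsmodels 0.14.6 and matplotlib 3.10.9 were used.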

Additional observations from a re-analysis of the deposited data

How the results depend on the processing

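No paired analysis was possible because there is 1 library for each line and salt, and nothing here was tested. No value reversed. Those not named here stayed within their counting interval or, for gene numbers, within 1.5 times. For regions above the median fold of the pooled lists, the region ratio was 1.42 and the covered length ratio 1.16. The background moved too, as all chromosomes then held 47206 CLBL-1 and 55627 CLBL-1 8.0 regions, against 82247 and 123421 in the full lists. In this setting the share of CLBL-1 regions met was 69.6%, and the open shares were 67.4% and 77.0% for CLBL-1 and CLBL-1 8.0. The median folds were 8.33 and 6.92, and 39 genes had more regions in CLBL-1 8.0. Lists of equal length were made by removing CLBL-1 8.0 regions of low fold, so that each list held 82247 regions over all chromosomes. The ratios in the stretch were then 1.42 and 1.24, the share met 69.7% and the CLBL-1 8.0 median fold 5.74. From 20 to 23 Mb the ratios were 1.53 and 1.37, the CLBL-1 8.0 share that met none 40.7%, its open share 79.4% and the genes 39. In the outer windows alone the ratios were 6.79 and 4.83, the share that met none 85.3%, the CLBL-1 share met 100%, the open shares 87.5% and 93.9%, the CLBL-1 8.0 median fold 5.38 and the genes 27. Regions of at least 300 bp gave a region ratio of 1.65. The scan over chromosome 4 began at 27.1 Mb and ended at 35.3 Mb. Its start moved to 27.5 Mb above the pooled median fold. With open regions only it ran from 20.5 to 63.4 Mb. Restricted to a higher CLBL-1 8.0 share from 16 to 27 Mb, an alternative chosen after seeing the data, it ran from 18.9 to 20.4 Mb. The cause of these changes was not tested. The unknown depth limits every statement on a region that is not listed.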
